A study of Mus musculus with 4 samples.

Results

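The transcripts of 10 genes of cytokine signalling were followed in T cells of tumour-draining lymph nodes: 7 receptor subunits (Il2rg, Il7r, Il2rb, Il4ra, Il21r, Il6ra and Il6st) and 3 feedback inhibitors (Cish, Socs1 and Socs3). They are 10 of the 32285 genes in the table, taken by symbol, and all 10 were found in all 4 libraries. The mice carried tumours of MC38-OVA cells, which derive from a colon carcinoma of the mouse and express ovalbumin, and live T cells were sorted from the draining nodes and sequenced with a droplet 5' kit. KO-DOX came from mice labelled as PD-L1 knockout and given doxorubicin, an anthracycline that damages DNA, after the tumour was established. KO-CTRL came from PD-L1 knockout mice with control treatment, WT-DOX from mice of the control genotype given doxorubicin, and WT-CTRL from mice of the control genotype with control treatment. The study's design places the knockout in dendritic cells, and the sources used here do not give the driver of the deletion, the age of the mice or the number of mice in a library. There was 1 library per group and no replicate, so no difference between groups was tested, and every counting interval below leaves out variation between mice.

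Cytokines of the common gamma chain family share the receptor subunit encoded by Il2rg and signal through JAK1 and JAK3 to STAT5 and other STAT proteins. IL-7, received through Il7r, keeps resting T cells alive; IL-2 and IL-15 are received through Il2rb, joined in the high-affinity IL-2 receptor by Il2ra; IL-4 and IL-21 use Il4ra and Il21r. IL-6 binds Il6ra and signals through Il6st, also called gp130, mainly to STAT3. Cish, Socs1 and Socs3 are switched on by STAT proteins and dampen the same receptors: CIS is a classical STAT5 target, SOCS1 blocks JAK kinases and SOCS3 binds gp130.

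The promoter windows of Il7r and of the 3 feedback genes are shown because their levels carry the results that follow, and because STAT proteins are known to bind a spaced TTC and GAA pair. Each window runs from 250 bases before the RefSeq gene start to 50 bases after it on GRCm38.p6, is written 5′ to 3′ on the gene's strand, and has TTCNNNGAA in capitals. The genes lie, in GENCODE M21 on GRCm38, at chr15:9505788-9530176 (Il7r), chr15:78479256-78495271 (Il2rb), chrX:101264378-101268255 (Il2rg), chr7:125552120-125579474 (Il4ra), chr7:125603429-125633570 (Il21r), chr3:89864059-89913196 (Il6ra), chr13:112464070-112510086 (Il6st), chr9:107296026-107302784 (Cish), chr16:10782240-10785536 (Socs1) and chr11:117966079-117970047 (Socs3). Il4ra, Il21r, Il6st and Cish are on the plus strand and the others on the minus strand. Windows were given for 9 of the 10 genes, Il2rb being the other.
Il7r (chr15:9529827-9530126, minus strand): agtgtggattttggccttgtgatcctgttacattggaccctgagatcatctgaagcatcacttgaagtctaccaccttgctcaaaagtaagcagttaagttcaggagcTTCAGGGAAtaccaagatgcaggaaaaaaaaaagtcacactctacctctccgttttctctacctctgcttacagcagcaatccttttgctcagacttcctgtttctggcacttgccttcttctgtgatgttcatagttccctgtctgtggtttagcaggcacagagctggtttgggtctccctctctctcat
Cish (chr9:107296409-107296708, plus strand): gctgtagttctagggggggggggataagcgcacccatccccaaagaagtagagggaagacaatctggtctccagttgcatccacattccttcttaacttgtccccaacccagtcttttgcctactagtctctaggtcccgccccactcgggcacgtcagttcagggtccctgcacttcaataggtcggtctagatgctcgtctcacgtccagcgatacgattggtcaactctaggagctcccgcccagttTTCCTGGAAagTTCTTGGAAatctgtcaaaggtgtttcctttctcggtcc
Socs1 (chr16:10785487-10785786, minus strand): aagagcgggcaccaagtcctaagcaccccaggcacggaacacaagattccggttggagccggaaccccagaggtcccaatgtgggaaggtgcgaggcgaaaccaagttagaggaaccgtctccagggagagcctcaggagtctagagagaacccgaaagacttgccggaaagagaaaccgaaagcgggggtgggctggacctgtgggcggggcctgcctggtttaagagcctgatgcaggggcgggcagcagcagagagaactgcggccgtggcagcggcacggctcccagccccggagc
Socs3 (chr11:117969317-117969616, minus strand): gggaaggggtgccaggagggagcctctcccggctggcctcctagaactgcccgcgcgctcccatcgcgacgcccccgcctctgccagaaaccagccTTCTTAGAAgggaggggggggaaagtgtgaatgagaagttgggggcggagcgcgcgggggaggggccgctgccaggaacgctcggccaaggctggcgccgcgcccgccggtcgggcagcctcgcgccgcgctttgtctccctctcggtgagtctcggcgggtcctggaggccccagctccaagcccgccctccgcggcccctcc
The letters TTCNNNGAA, which read the same on both strands, were in 3 of the 9 windows and in 8.29% of all 32817 RefSeq windows of this length. Il7r held 1 match, starting 142 bases before the RefSeq gene start, and Socs3 held 1, starting 154 bases before it. Cish held 2 matches, the second starting 11 bases past the RefSeq gene start, and 2 or more were in 0.457% of all windows. By the GENCODE positions given above, the windows of Il7r, Cish and Socs3 lie wholly inside the genes. The matches are thus placed by the RefSeq start only and are not upstream of the GENCODE gene start. The same pair spaced by 4 bases was in none of the 9 windows and in 6.94% of all windows. A match is a run of letters and not a bound site.

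After filtering, 10085, 12674, 12160 and 12474 T cells were kept in KO-DOX, KO-CTRL, WT-DOX and WT-CTRL, with 36769169, 45754713, 42253529 and 45482256 unique molecular identifiers (UMIs, each a counted transcript). The median T cell held 3014 to 3094 UMIs. Between 4.98% and 5.54% of the barcodes of a library also occurred in another library, and 1283 barcodes occurred in more than 1. Zbed5 set the WT-DOX library apart from the others, with 259 CPM (counts of UMIs per 1000000 UMIs of the same cells) in its T cells, against 0.852 to 1.01 in the other 3. Cd274, the gene of PD-L1, was at 82.8 CPM in KO-DOX, 85.1 in KO-CTRL, 65.6 in WT-DOX and 67.2 in WT-CTRL, and its level in T cells does not check a knockout in dendritic cells. Summed markers of cycling cells (Mki67, Top2a, Birc5 and Ccnb2) were at 251 CPM in KO-DOX, 245 in KO-CTRL, 151 in WT-DOX and 231 in WT-CTRL.

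T cells were also gated by marker UMIs into 4 classes. Foxp3-positive cells had at least 1 UMI of Foxp3 and none of Cd8a or Cd8b1. Ccl5-positive CD8 cells had no Cd4, at least 2 UMIs of Cd8a and Cd8b1 together and at least 2 of Ccl5, with none of Foxp3 or Trdc. Naive CD4 cells (with Cd4 and no Cd8a or Cd8b1) and naive CD8 cells (the reverse) had at least 2 UMIs in sum over markers of naive cells, Ccr7 and Lef1 among them, and none of 14 genes of activated, cycling or other cells. Foxp3-positive cells numbered 168 in KO-DOX, 228 in KO-CTRL, 172 in WT-DOX and 199 in WT-CTRL, and the Ccl5-positive CD8 cells 247, 288, 295 and 275 in the same order of libraries. Naive CD4 cells numbered 999, 1511, 1204 and 1396 and naive CD8 cells 2906, 3377, 3730 and 3491. The other 26907 T cells fell outside the 4 gates. Genes outside the gates were summed as a check. The sum of Ctla4, Tnfrsf18, Tnfrsf4, Capg and Tigit was 2676 to 3109 CPM in Foxp3-positive cells and 169 to 258 in naive CD4 cells. The sum of 7 cytotoxic and memory genes was 3060 to 3568 in Ccl5-positive CD8 cells and 1145 to 1218 in naive CD8 cells. In all T cells that sum was 841 to 912. Genes of naive cells (Tcf7, Igfbp4, Satb1, Dapl1 and Nsg2) summed to 2191 to 2500 in naive CD4 cells and 382 to 593 in Foxp3-positive cells. They summed to 1578 to 1686 in naive CD8 cells, 930 to 1105 in Ccl5-positive CD8 cells and 1565 to 1737 in all T cells. These sums thus set naive CD8 cells apart from Ccl5-positive CD8 cells, but did not mark them as naive among all T cells.

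In all T cells, Il7r, Socs1 and Socs3 varied most between the libraries and Il2rg, Il2rb and Cish least. The ratio of the highest to the lowest library was 1.45 for Il7r, 1.38 for Socs3 and 1.33 for Socs1, and it lay between 1.05 (Il2rg) and 1.16 (Il6st) for the other 7. Levels are in CPM with exact Poisson 95% intervals. They are not scaled to transcript length, so they are compared between libraries and classes and not between genes.

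**Figure D1:**
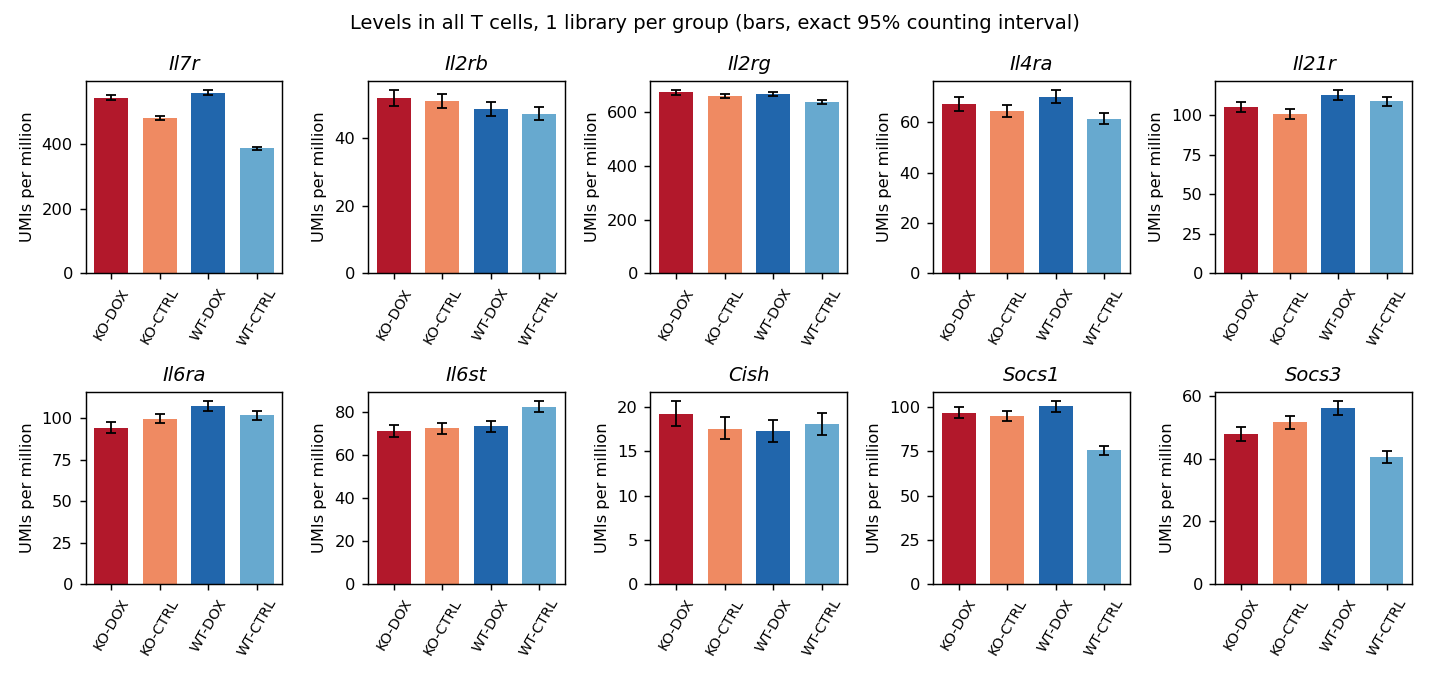
Level of each of the 10 genes in all T cells (y axis, CPM; bars, 1 library each; whiskers, exact 95% counting interval). Il7r, Socs1 and Socs3 are lowest in WT-CTRL, at 388, 75.6 and 40.6, while Il2rg stays between 638 and 673 in the 4 libraries.

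Among the receptors of the common gamma chain family, Il7r, the IL-7 receptor alpha chain, had 545 CPM in KO-DOX, 483 in KO-CTRL, 561 in WT-DOX and 388 in WT-CTRL. These levels rest on 20036, 22099, 23699 and 17630 UMIs in the same order, and no pair of neighbours in the order of levels had overlapping intervals. Il2rg, the common chain itself, had 673 CPM in KO-DOX, 658 in KO-CTRL, 668 in WT-DOX and 638 in WT-CTRL, an almost level profile. Il2rb, the signalling chain for IL-2 and IL-15, ranged from 47.3 CPM in WT-CTRL to 52.0 in KO-DOX. Il4ra, which binds IL-4, had 67.3 CPM in KO-DOX, 64.3 in KO-CTRL, 70.2 in WT-DOX and 61.5 in WT-CTRL. Il21r, which binds IL-21, ranged from 100.7 CPM in KO-CTRL to 113 in WT-DOX.

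Of the IL-6 receptor pair, Il6ra had 94.3 CPM in KO-DOX, 99.9 in KO-CTRL, 107 in WT-DOX and 102 in WT-CTRL. Il6st ran in another order, with 70.8 CPM in KO-DOX, 72.2 in KO-CTRL, 73.2 in WT-DOX and 82.3 in WT-CTRL, which stood above the other 3. Of the feedback genes, Socs1 had 96.8 CPM in KO-DOX, 94.8 in KO-CTRL, 100.4 in WT-DOX and 75.6 in WT-CTRL. Socs3 had 47.8 CPM in KO-DOX, 51.6 in KO-CTRL, 56.1 in WT-DOX and 40.6 in WT-CTRL. The inhibitors of JAK kinases and gp130 thus shared with Il7r their lowest library, WT-CTRL. Cish had 19.2 CPM in KO-DOX, 17.6 in KO-CTRL, 17.3 in WT-DOX and 18.1 in WT-CTRL, and its intervals overlapped in all neighbouring pairs.

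Doxorubicin with the control genotype was the comparison with the most distance among these genes. Il7r, Socs3 and Socs1 were higher in WT-DOX than in WT-CTRL by the fold used for calls, at least 0.32 in log2 of CPM plus 1, and no member was lower by it. That is 3 of 10 higher, where 0.620% of the 9032 genes with a mean of at least 5 CPM were higher and 3.68% lower by the same rule. The log2 fold was 0.53 for Il7r (ratio 1.45, 95% counting interval 1.42 to 1.48), 0.46 for Socs3 (ratio 1.38, 1.30 to 1.47) and 0.41 for Socs1 (ratio 1.33, 1.27 to 1.39). Among all genes, 0.177% lay at least as far up as Il7r, 0.233% as Socs3 and 0.310% as Socs1. Il4ra (0.19) and Il2rg (0.07) were higher and Il6st (-0.17) lower with intervals apart but under the fold. The median over the 10 was 0.07, beside -0.02 over all genes. The 3 calls held under every alternative run, within 0.49 to 0.56 for Il7r, 0.42 to 0.48 for Socs3 and 0.39 to 0.43 for Socs1, also without cells holding a UMI of Mki67 or Top2a and with equal class proportions. A list of 14 measured immediate early and dissociation genes had a median of 0.16 in the same comparison, with Ier2 at 609 CPM in WT-DOX and 485.5 in WT-CTRL, and its part in the levels of Socs1 and Socs3 was not tested.

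Between the knockout libraries no member passed the fold in all T cells, where 0.742% of genes were higher and 0.985% lower (0.742% and 0.963% with intervals apart as well). Il7r was higher in KO-DOX than in KO-CTRL by 0.17 (ratio 1.13, 1.11 to 1.15) and was the sole member whose level intervals in the 2 libraries did not overlap. Socs1 lay at 0.03, Cish at 0.12, Socs3 at -0.11 and Il6ra at -0.08. The knockout response minus the control-genotype response was -0.36 for Il7r (counting interval -0.40 to -0.32), -0.38 for Socs1 (-0.47 to -0.29) and -0.57 for Socs3 (-0.69 to -0.44). With 1 library in a group these differences have no test beyond counting error.

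The knockout libraries were set against the control genotype within each treatment. With control treatment, Socs3 (0.34) and Socs1 (0.32) were higher in KO-CTRL than in WT-CTRL by the fold, with 1.43% of all genes higher and 0.797% lower. Il7r lay just under it, with a ratio of 1.25 (1.22 to 1.27), and Il6st was lower (-0.19) with intervals apart. This comparison shares WT-CTRL with the doxorubicin comparison of the control genotype, so the values of Il7r, Socs1 and Socs3 in both rest on the same low library. The calls of Socs1 and Socs3 sit at the fold and were lost with a pseudocount of 5 (0.31 each), while Il7r passed it under 5 alternatives (0.33 to 0.36). With doxorubicin, no member passed the fold between KO-DOX and WT-DOX (4.46% of genes higher and 1.06% lower, 4.43% and 1.05% with intervals apart), and the farthest were Socs3 at -0.23 and Il6ra at -0.19.

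**Figure D2:**
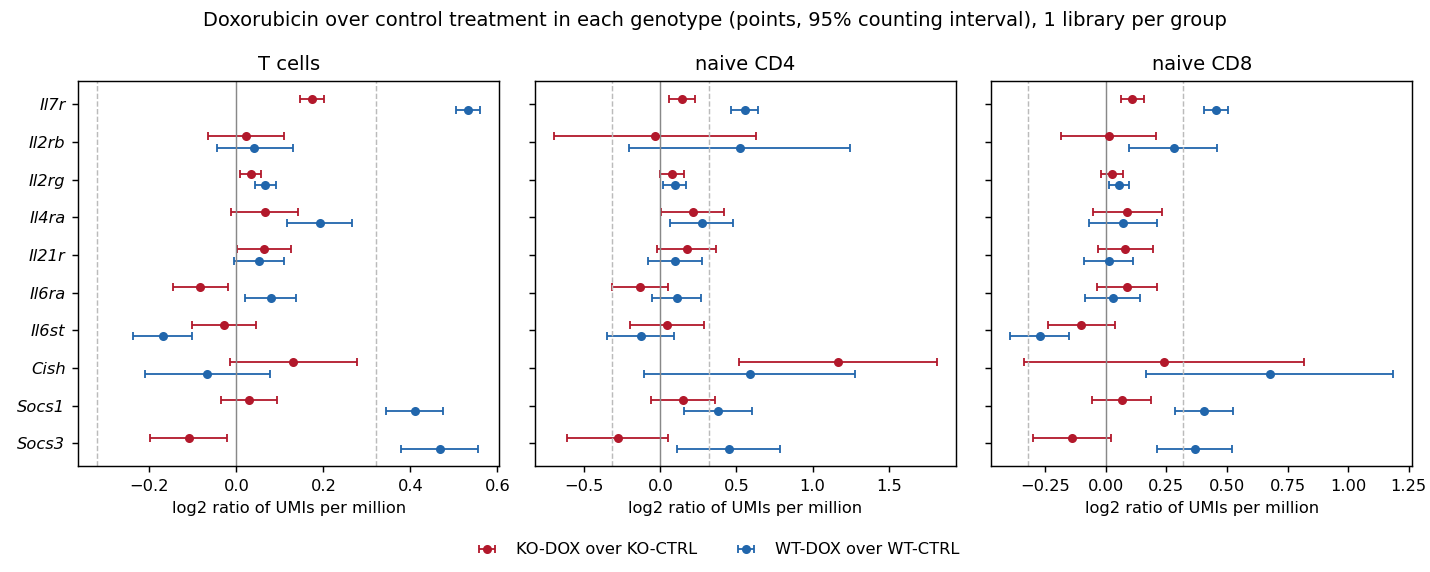
Doxorubicin over control treatment in all T cells, naive CD4 cells and naive CD8 cells (x axis, its scale differing between panels, log2 ratio of CPM without a pseudocount; points with 95% counting interval; red, KO-DOX over KO-CTRL; blue, WT-DOX over WT-CTRL; dashed lines, 0.32 in either direction). In all T cells the blue points of Il7r, Socs1 and Socs3 lie past the dashed line while the red point of Socs3 lies below 0.

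Inside the classes Il7r separated Foxp3-positive cells from the rest. In Foxp3-positive cells it had 250.4 CPM in KO-DOX, 158 in KO-CTRL, 223 in WT-DOX and 163 in WT-CTRL. In Ccl5-positive CD8 cells it had 743 CPM in KO-DOX, 574 in KO-CTRL, 650.3 in WT-DOX and 487 in WT-CTRL. Its level in every library was lower in Foxp3-positive cells than in any other class. Naive CD4 cells had 638 CPM in KO-DOX, 578 in KO-CTRL, 615 in WT-DOX and 419 in WT-CTRL. Naive CD8 cells had 663 CPM in KO-DOX, 614 in KO-CTRL, 629 in WT-DOX and 458 in WT-CTRL. KO-DOX had the highest value for Il7r in all 4 classes, a pattern of 1.20% of the 4915 genes with at least 20 CPM in each class and of 1 of the 8 members among them. Its interval overlapped that of WT-DOX in Foxp3-positive and naive CD4 cells, and under the stricter gate KO-DOX lay below WT-DOX in Foxp3-positive cells (log2 fold -0.096). Over all T cells WT-DOX was the highest; the T cells outside the gates had 477 CPM in KO-DOX, 418 in KO-CTRL, 521 in WT-DOX and 352 in WT-CTRL.

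Il2rb was highest in Foxp3-positive and Ccl5-positive CD8 cells and lowest in naive CD4 cells. Foxp3-positive cells had 129 CPM in KO-DOX, 147 in KO-CTRL, 166 in WT-DOX and 155 in WT-CTRL. Ccl5-positive CD8 cells had 151 CPM in KO-DOX, 138 in KO-CTRL, 134 in WT-DOX and 139 in WT-CTRL, above Foxp3-positive cells in KO-DOX and below them in the other 3 libraries. Naive CD4 cells had 6.35 to 10.2 CPM and naive CD8 cells 33.6 to 40.8, and the ranges of the naive classes did not overlap. In naive CD4 cells Il2rb was near the 7.38 CPM of the 163 B cells in the libraries, which serve as background, so no expression is read from it there. The B cells held 541787 UMIs in all, so this background level rests on few counts of Il2rb.

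Cish was concentrated in Foxp3-positive cells. It had 124 CPM there in KO-DOX, 97.8 in KO-CTRL, 144 in WT-DOX and 143 in WT-CTRL. Ccl5-positive CD8 cells had 11.1 to 16.5 CPM, naive CD4 cells 6.81 to 15.4, naive CD8 cells 3.82 to 6.11 and the T cells outside the gates 19.5 to 21.7. Foxp3-positive cells were 1.41% to 1.80% of T cells but held 18.2% to 24.5% of the T cell UMIs of Cish, and the T cells outside the gates held 59.6% to 69.7%. After thinning each cell to 1500 UMIs, Cish was detected in 19.5% of Foxp3-positive cells in KO-DOX, 14.8% in KO-CTRL, 23.2% in WT-DOX and 21.2% in WT-CTRL, against 0.890% to 2.44% of naive CD4 cells. The unthinned shares were 45.2%, 34.7%, 40.7% and 48.7% of Foxp3-positive cells in that order and 2.01% to 4.20% of naive CD4 cells. No UMI of Cish was found in 144 thinned B cells (median 2270 UMIs before thinning), which allows a share of up to 2.53% by the exact Clopper-Pearson interval, so the naive CD4 shares are not told apart from background. The same thinning left Il7r in 21.8% to 37.1% of Foxp3-positive cells and 39.4% to 55.7% of naive cells, against 0.694% of B cells; unthinned, these were 42.5% to 60.7%, 56.5% to 79.3% and 2.45%.

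**Figure D3:**
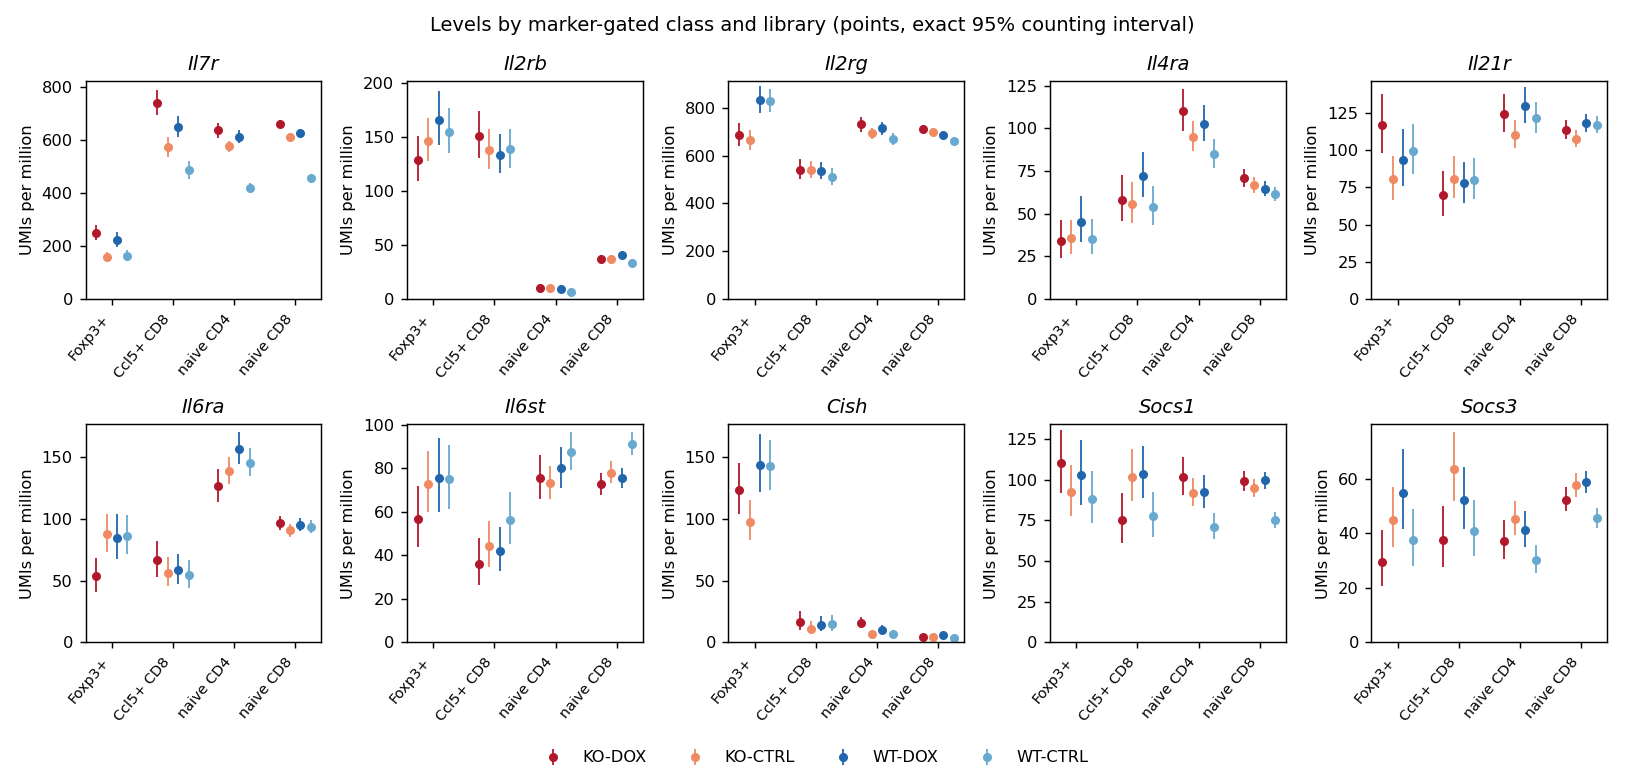
Level of each gene in the 4 marker-gated classes (y axis, CPM; points, 1 library each, ordered KO-DOX, KO-CTRL, WT-DOX and WT-CTRL from left to right; whiskers, exact 95% counting interval). Cish lies at 97.8 to 144 in Foxp3-positive cells and at or under 16.5 elsewhere, and Il7r is lowest in Foxp3-positive cells.

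The remaining receptors showed a smaller spread between classes. Il2rg had 664 to 834 CPM in Foxp3-positive cells, 512 to 542 in Ccl5-positive CD8 cells, 668 to 730 in naive CD4 cells and 661 to 711 in naive CD8 cells. Il4ra ran from 33.8 to 45.4 CPM in Foxp3-positive cells, 53.8 to 72.2 in Ccl5-positive CD8 cells, 84.9 to 110.0 in naive CD4 cells and 61.4 to 70.8 in naive CD8 cells. Naive CD4 cells were the highest class for Il4ra in every library. Il6ra was also highest in naive CD4 cells, at 126 to 157 CPM, with 90.5 to 96.3 in naive CD8 cells, 53.3 to 87.8 in Foxp3-positive cells and 54.4 to 66.6 in Ccl5-positive CD8 cells. Il6st had 36.1 to 56.3 CPM in Ccl5-positive CD8 cells and 56.7 to 91.1 in the other classes. Il21r had 69.7 to 80.9 CPM in Ccl5-positive CD8 cells, and 80.4 to 129.8 in the other classes.

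Socs1 and Socs3 had no single class of high level. Socs1 had 88.4 to 110.0 CPM in Foxp3-positive cells, 75.2 to 104 in Ccl5-positive CD8 cells, 71.0 to 102 in naive CD4 cells and 75.1 to 99.5 in naive CD8 cells. Socs3 had 29.6 CPM in Foxp3-positive cells of KO-DOX, 44.9 in KO-CTRL, 54.8 in WT-DOX and 37.5 in WT-CTRL. In Ccl5-positive CD8 cells it had 37.6 CPM in KO-DOX, 63.6 in KO-CTRL, 52.2 in WT-DOX and 41.0 in WT-CTRL. Naive CD4 cells, at 30.2 to 45.2 CPM, were below naive CD8 cells, at 45.5 to 58.7, within every library.

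Classes were compared with edgeR's quasi-likelihood test on the 16 sums of 4 classes in 4 libraries, with library as a block and Benjamini-Hochberg adjustment over 9846 genes. The 4 libraries also differ in genotype and treatment, and folds use TMM scaling, so a fold can differ from the ratio of mean CPM. In Foxp3-positive cells Il2rb and Cish rose above naive CD4 cells and Il7r, Il4ra, Il6ra, Il21r and Il6st fell. Il2rb averaged 149 ± 15.5 CPM in Foxp3-positive cells and 8.89 ± 1.75 in naive CD4 cells (SD, n = 4 libraries each; log2 fold 3.91 ± 0.12 SE; adjusted p = 8.81e-24). Cish averaged 127 ± 21.6 CPM in Foxp3-positive cells and 9.81 ± 4.04 in naive CD4 cells (3.59 ± 0.14; adjusted p = 4.88e-21). The IL-2 receptor chain and the STAT5 feedback gene were higher in 4 of 4 libraries. Il7r averaged 199 ± 45.3 CPM in Foxp3-positive cells and 562 ± 98.8 in naive CD4 cells (-1.68 ± 0.064; adjusted p = 2.42e-21). Il4ra had a log2 fold of -1.55 ± 0.10 (adjusted p = 8.75e-15) and Il6ra one of -1.02 ± 0.094 (adjusted p = 2.40e-11). The folds of Il21r (-0.49, adjusted p = 2.40e-06) and Il6st (-0.34, adjusted p = 0.00121) were smaller. Il2rg (-0.07, adjusted p = 0.269), Socs1 (-0.02, adjusted p = 0.843) and Socs3 (-0.06, adjusted p = 0.711) did not pass the test, and their mean CPM was slightly higher in Foxp3-positive cells.

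The count of 2 higher and 5 lower is to be read against 32.2% of all genes called higher and 31.3% lower in this contrast, whereas 2.69% fell at least as far as Il7r. The folds of Il2rb and Cish are set against naive CD4 levels near background, so their size is uncertain. The 5% of cells with the most UMIs in each library made up 21.1% to 27.1% of Foxp3-positive cells and held 57.0% to 63.4% of their UMIs, and 28.1% to 33.1% of Foxp3-positive cells had a UMI of Mki67 or Top2a, which the naive gates do not allow. The 4 cycling markers summed to 905 to 1302 CPM in Foxp3-positive cells and 1.03 to 1.38 in naive CD4 cells, with Mki67 and Top2a at 0 in naive CD4 cells by the gate. Without the cells with the most UMIs 5 members were higher and 3 lower, with Socs1 at 0.70 (adjusted p = 3.78e-08), Socs3 at 0.91 (adjusted p = 1.59e-07) and Il2rg at 0.20 (adjusted p = 3.24e-04). Without cells holding Mki67 or Top2a, an alternative chosen after seeing the data, 5 were higher and 2 lower, with Socs1 at 0.60 (adjusted p = 4.58e-06), Socs3 at 0.87 (adjusted p = 9.74e-07) and Il2rg at 0.23 (adjusted p = 9.74e-05). Il6st then lay at 0.17 and 0.25 (adjusted p = 0.243 and 0.0719), Il21r lost its call in both (adjusted p = 0.161 and 0.0767), and Il6ra without Mki67 or Top2a cells (-0.22, adjusted p = 0.0852). With each cell at the same weight, which has no test, Il7r was at 296 CPM in Foxp3-positive cells and 556 in naive CD4 cells, a log2 difference of -0.94.

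In Ccl5-positive CD8 cells Il2rb and Cish again rose above the naive class, and Il6st, Il6ra, Il21r and Il2rg fell. Il2rb averaged 141 ± 7.41 CPM in Ccl5-positive CD8 cells and 37.1 ± 2.93 in naive CD8 cells (SD, n = 4 libraries each; 1.98 ± 0.078 SE; edgeR adjusted p = 2.17e-20). Cish averaged 14.05 ± 2.22 CPM in Ccl5-positive CD8 cells and 4.62 ± 1.06 in naive CD8 cells (1.65 ± 0.23; adjusted p = 3.72e-07), far below its level in Foxp3-positive cells. The naive CD8 level of Cish is near background, so the size of this fold is uncertain. Il6st averaged 44.65 ± 8.50 CPM in Ccl5-positive CD8 cells and 79.3 ± 8.16 in naive CD8 cells (-0.75 ± 0.087; adjusted p = 1.11e-08). The signalling chain for IL-6 was lower in 4 of 4 libraries. Il6ra (-0.62, adjusted p = 2.60e-06), Il21r (-0.49, adjusted p = 2.05e-06) and Il2rg (-0.30, adjusted p = 1.52e-05) fell by less. Il7r averaged 613.5 ± 109 CPM in Ccl5-positive CD8 cells and 591 ± 90.7 in naive CD8 cells (0.12, adjusted p = 0.0638), and Il4ra (-0.06), Socs1 (0.04) and Socs3 (-0.06) did not pass.

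Of all genes, 22.6% were called higher and 18.4% lower in the Ccl5-positive contrast, against 2 and 4 of the 10 members. Cycling markers summed to 317 to 644 CPM in Ccl5-positive CD8 cells and 0.474 to 0.919 in naive CD8 cells, and Il7r rose in Ccl5-positive cells by 0.40 without cells holding Mki67 or Top2a (adjusted p = 7.32e-12) and by 0.46 without the cells with the most UMIs (adjusted p = 5.18e-12). Socs3 then turned to 0.33 (adjusted p = 0.0160; without the cells with the most UMIs), Socs1 rose by 0.24 (adjusted p = 0.0216; without Mki67 or Top2a cells), and Il21r lost its call without the cells with the most UMIs (-0.20, adjusted p = 0.0717). Leaving out KO-CTRL also brought Il7r past the threshold (0.17, adjusted p = 0.00897).

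Naive CD4 and naive CD8 cells, both without Mki67 and Top2a by the gate, differed in Il2rb. It averaged 8.89 ± 1.75 CPM in naive CD4 cells and 37.1 ± 2.93 in naive CD8 cells (SD, n = 4 libraries each; -2.15 ± 0.12 SE; edgeR adjusted p = 2.54e-16). Since the naive CD4 level is near the 7.38 CPM of B cells, the size of that fold is uncertain. Socs3 fell as well (-0.57 ± 0.076; adjusted p = 3.23e-07) and was lower in naive CD4 cells in 4 of 4 libraries. Il6ra (0.51 ± 0.060; adjusted p = 2.36e-08), Il4ra (0.48 ± 0.058; adjusted p = 3.47e-08) and Cish (0.93 ± 0.18; adjusted p = 1.48e-04) were higher in naive CD4 cells, Cish at 9.81 against 4.62 CPM. Both levels of Cish are near background, so the size of its fold is uncertain. The 3 higher and 3 lower members compare with 15.6% and 15.1% of all genes. Il7r fell by 0.16 in naive CD4 cells (adjusted p = 0.00943), a call lost with DESeq2 (adjusted p = 0.0589) or without WT-CTRL (adjusted p = 0.0590). Il2rg, Il6st, Il21r and Socs1 did not pass the test.

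**Figure D4:**
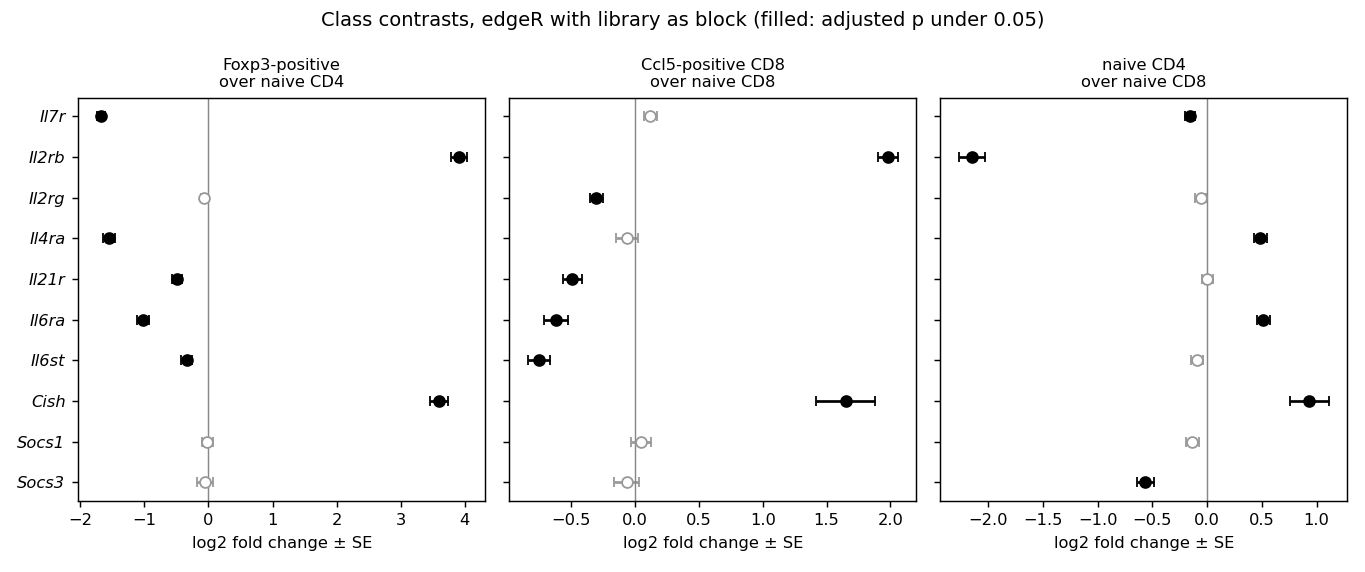
edgeR log2 fold change of each gene in the 3 class contrasts (x axis, points with SE; filled, adjusted p under 0.05; open, not called; the scale of the x axis differs between panels). Il2rb and Cish lie to the right in the contrasts of Foxp3-positive and Ccl5-positive CD8 cells, at 3.91 and 3.59 and at 1.98 and 1.65.

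Under doxorubicin with the control genotype, Il7r and Socs3 passed the fold in every class, Il7r with intervals apart in all 4 and Socs3 in naive CD8 cells. Il7r was higher in WT-DOX than in WT-CTRL by 0.45 in Foxp3-positive cells, 0.42 in Ccl5-positive CD8 cells, 0.55 in naive CD4 cells and 0.45 in naive CD8 cells. Socs3 was higher by 0.54, 0.34, 0.44 and 0.36 in the same order of classes. The calls of Socs3 were lost in Foxp3-positive cells under the stricter gate (0.0761) and with equal cell weight (0.295), in Ccl5-positive CD8 cells with a pseudocount of 5 (0.315) and in naive CD8 cells under the stricter gate (0.300). Socs1 passed the fold in 3 classes, at 0.41 in Ccl5-positive CD8 cells, 0.37 in naive CD4 cells and 0.40 in naive CD8 cells, with overlapping intervals in the first and a call lost under the stricter gate in the second (0.315), and lay at 0.22 in Foxp3-positive cells. Il4ra passed it in Foxp3-positive (0.35) and Ccl5-positive CD8 cells (0.42) with overlapping intervals, and fell just short with a pseudocount of 5 in Foxp3-positive cells and under the looser gate in Ccl5-positive CD8 cells (0.314). Il2rb in naive CD4 cells (0.46) and Cish in naive CD4 (0.52) and naive CD8 cells (0.56) passed it too, but with overlapping intervals and at levels near background, and no difference is read from them. Il6st was lower in Ccl5-positive CD8 cells, at -0.42 with overlapping intervals, the sole member below the fold in any class, and lay at -0.205 with equal cell weight.

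The share of all genes past the fold was smallest in naive CD8 cells. Of the 10 members 3 were higher in Foxp3-positive cells (19.3% of genes higher and 17.4% lower), 4 higher and 1 lower in Ccl5-positive CD8 cells (16% and 19.4%), 5 higher in naive CD4 cells (7.52% and 8.78%) and 4 higher in naive CD8 cells (1.86% and 4.70%). These counts include Il2rb and Cish in the naive classes, and Cish in naive CD8 cells is below the mean of 5 CPM that those shares require. In naive CD4 cells the median over the members was 0.32, beside 0.01 over all genes tested there. This median also takes in Il2rb and Cish, from which no difference is read, and both lie above it.

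In the knockout libraries the receptor and feedback genes of the small classes went in both directions under doxorubicin. In Foxp3-positive cells Il7r (0.66), Il21r (0.53) and Cish (0.33) were higher in KO-DOX than in KO-CTRL, and Il6ra (-0.71), Socs3 (-0.58) and Il6st (-0.36) lower, with 18.1% of genes higher and 17.6% lower. The intervals of Cish, Socs3 and Il6st overlapped between these libraries. The lower value of Il6st turned to 0.02 without the cells with the most UMIs, and Cish lay at 0.197 under the stricter gate. In Ccl5-positive CD8 cells Cish (0.53) and Il7r (0.37) were higher and Socs3 (-0.74) and Socs1 (-0.43) lower (15.9% and 16.8% of genes), with overlapping intervals for Cish and Socs1. Under the looser gate Socs3 lay at -0.187 and Socs1 at -0.220, Socs1 lay at -0.293 without the cells with the most UMIs, and Il7r fell short of the fold under 4 alternatives (0.247 to 0.313). In naive CD4 cells Cish was higher by 1.06 (ratio 2.25, 1.43 to 3.52; 7.52% of genes higher and 7.91% lower), on 45 UMIs in KO-DOX and 33 in KO-CTRL at shares of cells near background, and in naive CD8 cells no member passed the fold (2.41% and 2.64%). Summed follicular helper markers were at 110.0 CPM in Foxp3-positive cells of KO-DOX, 58.3 in KO-CTRL, 61.4 in WT-DOX and 50.2 in WT-CTRL, and their part in the Foxp3-positive values was not tested.

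The response of Il7r in the knockout minus that in the control genotype was negative in the naive classes, at -0.41 in naive CD4 cells (counting interval -0.53 to -0.29) and -0.35 in naive CD8 cells (-0.41 to -0.28). In Foxp3-positive (0.21, -0.15 to 0.57) and Ccl5-positive CD8 cells (-0.05, -0.23 to 0.14) the interval held 0. For Socs3 it was negative in all 4 classes, at -1.12 in Foxp3-positive cells (-1.92 to -0.32), -1.08 in Ccl5-positive CD8 cells (-1.76 to -0.41), -0.71 in naive CD4 cells (-1.18 to -0.24) and -0.50 in naive CD8 cells (-0.72 to -0.28). For Socs1 it was -0.85 in Ccl5-positive CD8 cells (-1.34 to -0.35) and -0.34 in naive CD8 cells (-0.51 to -0.17), while the intervals of Foxp3-positive and naive CD4 cells held 0. The differences compare 4 libraries and cannot be set against variation between mice.

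Between genotypes with control treatment, Il7r was higher in KO-CTRL than in WT-CTRL in naive CD4 (0.46) and naive CD8 cells (0.42). Socs1 and Socs3 were higher in 3 classes, at 0.37 and 0.57 in naive CD4 cells, 0.33 and 0.33 in naive CD8 cells and 0.39 and 0.62 in Ccl5-positive CD8 cells. In Ccl5-positive CD8 cells the intervals of both genes overlapped. In naive CD8 cells both calls sit at the fold, and 3 alternatives each brought Socs1 (as low as 0.317) and Socs3 (0.231 to 0.309) below it. The same happened to Socs1 in naive CD4 cells under the stricter gate (0.236) and without shared barcodes (0.311), and in Ccl5-positive CD8 cells to Socs1 without the cells with the most UMIs (0.278) and to Socs3 under the looser gate (0.286). Of all genes 6.41% were higher and 7.32% lower in naive CD4 cells, and 2.15% and 2.88% in naive CD8 cells. Il2rb passed the fold in naive CD4 cells (0.60) with overlapping intervals at levels near background, and no difference is read from it. In Foxp3-positive cells Cish (-0.54) and Il2rg (-0.32) were lower (14.9% of genes higher and 18.5% lower), and in Ccl5-positive CD8 cells Cish (-0.37) and Il6st (-0.33) were, with overlapping intervals (15.0% and 18.1%). Il2rg sits at the fold and fell short of it under 6 alternatives (-0.318 to -0.130), Cish in Ccl5-positive CD8 cells under 3 (-0.288 to -0.133) and Il6st under 2 (-0.309 and -0.301). With doxorubicin, where both libraries also stand in the comparisons with control treatment, 1 of the 40 gene and class pairs was higher and 8 were lower in KO-DOX than in WT-DOX. The lower ones were Socs3 (-0.87), Il6ra (-0.65), Il4ra (-0.41), Il6st (-0.41) and Il2rb (-0.36) in Foxp3-positive cells (18.1% higher, 22.0% lower), Socs1 (-0.46) and Socs3 (-0.46) in Ccl5-positive CD8 cells (17.4% each way) and Cish (-0.33) in naive CD8 cells (2.58% and 2.44%). Cish in naive CD4 cells was the higher one (0.55; 9.16% and 9.30%). Of these 9, the intervals stood apart for Socs3 in Foxp3-positive cells alone. With equal cell weight Il2rb lay at -0.0271 and Il6ra at -0.241 in Foxp3-positive cells, Il2rb lay at -0.255 without the cells with the most UMIs, Il6st lay at -0.223 under the stricter gate, and Cish in naive CD8 cells fell short under 3 alternatives (-0.267 to -0.178).

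Cish followed Il2ra, the alpha chain of the IL-2 receptor, across the 16 library and class sums. Its Pearson r with Il2ra was 0.990 in log2 of CPM plus 1, ahead of Mthfsl (0.989) and Myo1e (0.987), among 5902 genes with a mean of at least 20 CPM. Il2rb was nearest to AW112010 (0.988), Hopx (0.984) and Gem (0.974), and Il7r to the ribosomal protein genes Rps19 (0.980) and Rps14 (0.974). Socs1 (0.763 with Hnrnpa0) and Socs3 (0.771 with Dusp2) had no such close partner. The nearest gene was Tecpr1 for Il4ra (0.972), Ramp3 for Il6ra (0.967), Ccdc88c for Il2rg (0.956), Rnf103 for Il21r (0.942) and Nipbl for Il6st (0.936). Within the set, Il7r and Cish ran opposite (-0.853) and Il7r and Il4ra together (0.778). The 16 sums share 4 classes and 4 libraries, so these values describe the classes and have no p.

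Since Il2ra was chosen from that likeness, T cells were then split by whether a UMI of Il2ra was detected, as a description. Among T cells outside the 4 classes, Cish had 72.5 CPM in Il2ra-detected cells of KO-DOX (289 cells), 77.4 in KO-CTRL (346), 83.2 in WT-DOX (266) and 86.3 in WT-CTRL (337). In cells of the same libraries with no UMI of Il2ra it had 14.5, 14.3, 13.7 and 12.4 CPM. Cish was thus higher beside Il2ra in every library also outside the Foxp3 gate. The cells outside the 4 classes can still hold Foxp3, since cells with UMIs of both Foxp3 and Cd8a or Cd8b1 fall there. Cells whose Foxp3 transcripts went undetected can fall there too, and the part of either was not tested. The Il2ra-detected cells were deeper, with a median of 3560.5 to 4144.5 UMIs against 2681 to 2773, and the part of depth was not tested. Il2rb had 104 to 114.5 CPM in the Il2ra-detected cells and 42.4 to 48.1 in the others. Il7r ran the other way, with 237 CPM in Il2ra-detected cells of KO-DOX, 154 in KO-CTRL, 288 in WT-DOX and 182 in WT-CTRL, against 509, 453, 542 and 373.5 in the others. Within Foxp3-positive cells Cish had 106 to 157 CPM with Il2ra detected and 70.8 to 109 without. Its intervals overlapped in KO-DOX, KO-CTRL and WT-DOX. Il2rb there had 125 CPM with Il2ra detected and 147 without in KO-DOX, and 137 and 180 in KO-CTRL. In WT-DOX Il2rb had 175 and 139 and in WT-CTRL 162 and 119, with overlapping intervals in each library. Il7r there was lower with Il2ra detected in KO-DOX, KO-CTRL and, with overlapping intervals, WT-DOX, and level in WT-CTRL at 163 CPM each.

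**Figure D5:**
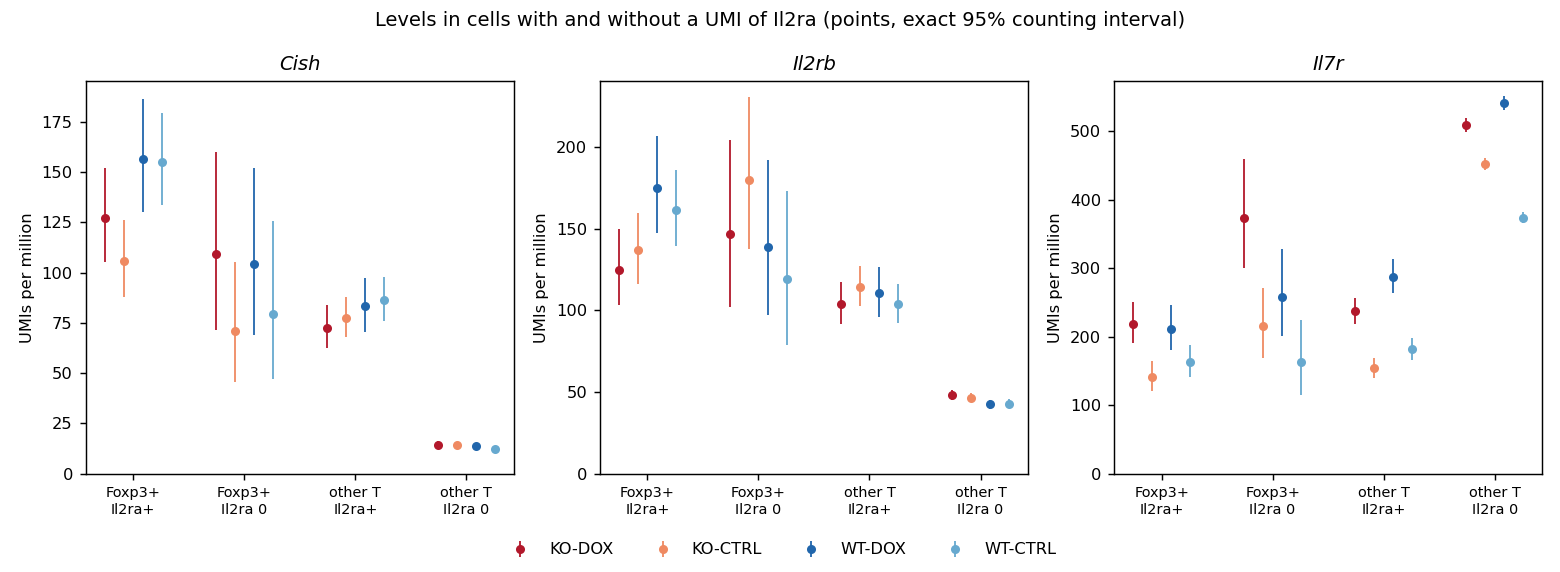
Cish, Il2rb and Il7r in cells with and without a UMI of Il2ra, in Foxp3-positive cells and in T cells outside the 4 classes (y axis, CPM; points, 1 library each; whiskers, exact 95% counting interval). Outside the classes Cish lies at 72.5 to 86.3 with Il2ra detected and 12.4 to 14.5 without, and Il7r lies lower with Il2ra detected in every library.

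The wider pathway was read from 7 lists, chosen with earlier results of these data known. Their counts come from the main runs, since the alternatives were not applied to the lists. The part of cycling cells and of cells with the most UMIs in these counts was not tested. In Foxp3-positive against naive CD4 cells, where 32.2% of all genes were higher and 31.3% lower, 13 of 20 measured other cytokine receptors rose and 4 fell, with a median log2 fold of 1.07 beside -0.02 over all genes. Il2ra averaged 468 ± 58.4 CPM in Foxp3-positive cells and 8.32 ± 1.29 in naive CD4 cells (SD, n = 4 libraries each; 5.66; edgeR adjusted p = 3.54e-30). Il1r2, the IL-1 decoy receptor (115 CPM in Foxp3-positive and 1.45 in naive CD4 cells), and Il1rl1, the IL-33 receptor (20.6 and 0.0519), rose too. Ifngr2 (64.9 and 224), Tgfbr2 (96.8 and 290.5) and Il27ra (63.4 and 84.4) fell. Of 11 JAKs and STATs 3 rose and 5 fell: Jak2 rose to 198 CPM in Foxp3-positive cells, against 81.0 in naive CD4 cells, and Jak3 to 48.6, against 23.2, while Jak1 (480 and 871), Stat5b (89.1 and 137) and Stat5a (46.5 and 63.5) fell. Socs2 had 63.6 CPM in Foxp3-positive cells and 1.32 in naive CD4 cells, and with Socs5 (22.5 and 6.60) and Ptpn1 (202 and 133) it was among 3 of 14 other negative regulators that rose, while 4 fell.

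Genes known to respond to STAT5 were split in Foxp3-positive cells, with 5 of 11 higher and 5 lower, beside 32.2% and 31.3% of all genes. The survival gene Bcl2l1 had 45.0 CPM in Foxp3-positive cells and 8.43 in naive CD4 cells, whereas its relative Bcl2 had 99.1 and 182, Ccnd3, a cyclin, 164 and 308.5, and the kinase gene Pim2 15.9 and 30.3. Of 8 genes tied to FOXO1 or the control of Il7r, 6 fell with Il7r, among them Foxp1 (226 CPM in Foxp3-positive and 687 in naive CD4 cells), S1pr1 (156 and 456) and Klf2 (399 and 779.5), and Gabpa rose (49.1 and 31.8). Of 3 measured ligands Il10 (63.5 and 0.0690) and Ebi3 (52.4 and 0.952) rose and Clcf1 (7.82 and 18.8) fell. Of 14 immediate early and dissociation genes 4 rose and 9 fell.

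In Ccl5-positive CD8 against naive CD8 cells, where 22.6% of all genes were higher and 18.4% lower, 11 of 20 other receptors rose and 4 fell, with Il18rap, an IL-18 receptor chain, at 34.0 CPM in Ccl5-positive and 2.53 in naive CD8 cells and Ifngr2 at 33.0 and 153. Of the JAKs and STATs 1 of 11 rose, Stat4 (198 and 154), and 7 fell, among them Stat5b (65.1 and 103) and Stat5a (32.5 and 50.8). STAT5-responsive genes were 5 higher and 1 lower of 11, with Il2ra (15.7 and 1.90), Bcl2l1 (15.1 and 7.74) and Bcl2 (258 and 163) higher and Mcl1 (190 and 293) lower. None of the 8 FOXO1 and Il7r control genes rose and 6 fell, S1pr1 at 197 CPM in Ccl5-positive and 348 in naive CD8 cells and Klf2 at 570.0 and 917, while Il7r itself did not fall. Socs2 rose to 7.63 CPM in Ccl5-positive cells, against 0.264 in naive CD8 cells, 1 of 2 higher and 2 lower among 14 negative regulators. Ligands were 2 higher and 1 lower of 3, and immediate early genes 3 higher and 7 lower of 14. The higher ligands were Ebi3 (1.11 CPM in Ccl5-positive and 0.0184 in naive CD8 cells) and Il10 (0.545 and 0.0195). Il1rl1, among the receptors called higher, was at 0.456 and 0 CPM. At such low levels no difference is read from these 3 genes.

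In naive CD4 against naive CD8 cells, 15.6% of all genes were higher and 15.1% lower, and the lists gave 6 higher and 6 lower of 20 other receptors, 4 and 4 of 11 JAKs and STATs, 4 and 3 of 14 negative regulators, 1 and 1 of 3 ligands, and 6 and 3 of 14 immediate early genes. The higher ligand was Ebi3, at 0.952 CPM in naive CD4 and 0.0184 in naive CD8 cells, and no difference is read from it. Stat5b had 137 CPM in naive CD4 cells and 103 in naive CD8 cells, and Stat5a 63.5 and 50.8. Of 11 STAT5-responsive genes Il2ra (8.32 and 1.90), Pim1 (432 and 255) and 2 more rose, and Myc (45.1 and 76.5) and Pim2 (30.3 and 49.0) fell. Of 8 FOXO1 and Il7r control genes 4 rose, among them Runx1 (173 and 64.8), Ets1 (967 and 625) and Foxo1 (271 and 194), and 2 fell.

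Over all T cells the pathway genes were counted by the fold between libraries. In WT-DOX against WT-CTRL, with 0.620% of all genes higher and 3.68% lower, none of 11 JAKs and STATs did, and of 10 STAT5-responsive genes Ccnd3 (296 CPM in WT-DOX and 219 in WT-CTRL) and Bcl2 (174 and 133) were higher and Il2ra (30.9 and 40.8) lower. Il2ra stands in both lists and was the 1 of 18 other receptors past the fold. Of 10 FOXO1 and Il7r control genes 2 were lower, S1pr1 among them (282.5 and 356), in the comparison where Il7r was higher. Socs2 (4.99 and 6.99) was the 1 lower of 14 negative regulators, and Il10 (4.0 and 6.16) the 1 lower of 5 measured ligands. In KO-DOX against KO-CTRL (0.742% of all genes higher and 0.985% lower), none of the STAT5-responsive and FOXO1 genes passed, Usp18, a brake on interferon receptors, was lower (22.8 and 37.4), as was Stat2 (43.4 and 56.3), Il1r2 (20.1 and 13.6) was among 2 higher receptors, and Il10 (7.04 and 3.24) and Ebi3 (8.21 and 5.27) were higher. In KO-CTRL against WT-CTRL (1.43% and 0.797%), Stat2 (56.3 and 42.9), Usp18 (37.4 and 21.1) and Il10ra (11.4 and 8.95) were higher, and Il10 (3.24 and 6.16) was lower. In KO-DOX against WT-DOX (4.46% and 1.06%) Il21 (13.3 and 7.53) was higher. In the same pair 3 of 14 immediate early genes were lower, Zfp36 (396 and 554), Jun (491 and 625) and Ier2, with a list median of -0.16, in the comparison where Socs3 was farthest down.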

How the data were processed

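T cells of 4 single-cell 5' libraries, 1 per group, were analysed. The deposited matrices hold counts of UMIs per gene and barcode as made by the authors, on mm10 per the submitters' processing notes. The sources used here do not give the aligner, the cell calling tool or the strand setting, and where Il4ra, Il6ra and Cish share exon bases with a gene on the other strand, reads of the pair may be mixed. Gene positions came from GENCODE M21 on GRCm38.

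Barcodes under 300 genes or above 10% mitochondrial UMIs were dropped, which kept 48578 of 48597. T cells had at least 1 UMI of a CD3 or T cell receptor constant gene, fewer than 2 of Cd79a, Cd79b and Ms4a1 and fewer than 2 of Lyz2, Csf1r and Siglech (47393 cells). No doublet caller was run. The gates leave out cells with Cd4 and Cd8 UMIs or B cell markers, and 0 cells fell in more than 1 class. UMIs were summed per library, or per library and class, and divided by the total of the same cells. A member is called past a log2 fold of 0.32 of CPM plus 1, and genes with a mean of at least 5 CPM give the background. Poisson and Clopper-Pearson intervals are at 95% and cover counting error only. The fold call has no p. Shares were taken after thinning to 1500 UMIs, which left out 6 to 12 Foxp3-positive, 0 to 4 Ccl5-positive CD8, 38 to 55 naive CD4 and 34 to 73 naive CD8 cells per library, and 19 B cells.

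Class contrasts used edgeR 4.0.16 with TMM scaling, filterByExpr and library as a block, 9 residual degrees of freedom (R 4.3.3). DESeq2 1.42.0 was an alternative. Other steps used Python 3.11.15, numpy 2.4.6, scipy 1.17.1, pandas 2.3.3 and matplotlib 3.10.9. Scripts were tested on simulated data. Promoter windows are RefSeq's, on GRCm38.p6. Protein sequences were not used here.

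Genes named are all members, the pathway list genes past the fold with intervals apart or past an adjusted p of 0.05 (at most 3 in each direction), and the 3 genes most like each member, some of them left out for space and a few not reported here. Genes used in the gates were left out of the class lists. The members, lists and tests were chosen with earlier results of these data known. The alternatives changed scaling, cell weight, cell filter, T cell gate, class mix, class gates, pseudocount, gene filter, tool, block, libraries and thinning. Equal cell weight and removal of Mki67 or Top2a cells in the class contrasts, the Il2ra split and removal of barcodes shared between libraries were added after seeing the data.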

Additional observations from a re-analysis of the deposited data

Results flagged for a closer look

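The 10 members were searched in all T cells and the 4 classes for doxorubicin folds of opposite sign in the knockout and the control genotype. A case was kept only where both ratios had a counting interval that left out 1, which gave 4 cases. The share of all genes that meet this rule was not counted, so the count is not read as a result about the members. The value is the log2 fold of KO-DOX over KO-CTRL minus that of WT-DOX over WT-CTRL. In all T cells it was -0.159 for Il6ra, from -0.08 in the knockout and 0.08 in the control genotype. In all T cells it was -0.566 for Socs3, from -0.11 in the knockout and 0.46 in the control genotype. In Foxp3-positive cells it was -1.12 for Socs3, from -0.58 in the knockout and 0.54 in the control genotype, and the 0.54 was 0.0761 under the stricter gate and 0.295 with equal cell weight. In Ccl5-positive CD8 cells it was -0.846 for Socs1, from -0.43 in the knockout and 0.41 in the control genotype, and the -0.43 was -0.220 under the looser gate and -0.293 without the cells with the most UMIs. With 1 library in each group the difference between genotypes was not tested.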

How the results depend on the processing

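Of 360 alternative values of member folds over all T cells, 350 kept their side of the fold, 15 of them short of it with the opposite sign, 5 passed it and 5 fell below it, the last 10 all in KO-CTRL against WT-CTRL. There 2 members were higher, but 1 with the stricter cell filter and 0 with no T cell gate or a pseudocount of 5. Of 1280 class values 1197 kept their side or moved within counting error; 77 of these had the opposite sign, Cish in naive CD8 cells of KO-CTRL against WT-CTRL at -0.322 and the others short of the fold. Of the 40 gene and class pairs, 1 was lower in WT-DOX against WT-CTRL, and 2 without the cells with the most UMIs. In KO-DOX against KO-CTRL 5 pairs were lower, with 8 under the stricter and 3 under the looser gate. In KO-CTRL against WT-CTRL 4 were lower, with 8 under the stricter gate and 1 with equal cell weight or a pseudocount of 5. In KO-DOX against WT-DOX 1 pair was higher, with 2 under median-of-ratios scaling and 3 with equal cell weight. That count was 4 under the stricter gate or without the cells with the most UMIs. The shares of all genes given above for each class are those of the main run. Il6st in Foxp3-positive cells, KO-DOX against KO-CTRL, turned to 0.0213 without those cells. Leaving out barcodes found in other libraries changed no call in all T cells or in the class contrasts.

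In the class contrasts 388 of 420 member values kept their call, 25 of them not called and of the opposite sign. For Foxp3-positive against naive CD4 cells, leaving out the cells with the most UMIs, or those with Mki67 or Top2a, gave 5 and 5 members higher (2 before), 3 and 2 lower (5 before), 1896 and 1837 of all genes higher (3168 before) and 1732 and 1653 lower (3083 before). The reversed values were 0.202 and 0.226 for Il2rg, 0.173 and 0.252 for Il6st (adjusted p = 0.243 and 0.0719, edgeR), 0.696 and 0.601 for Socs1, and 0.908 and 0.867 for Socs3, and 0.143 for Il6st with equal cell weight. For Ccl5-positive against naive CD8 cells they gave 4 and 4 members higher (2 before), 1386 and 1430 of all genes higher (2228 before) and 946 and 928 lower (1811 before), 1176 under the stricter gate, with Socs3 at 0.325 in the cells left by the UMI limit. The cause was not tested. With each library left out in turn, 2 to 2 members were higher and 5 to 6 lower in the Foxp3-positive contrast, 2 to 3 and 4 to 4 in the Ccl5-positive one, and 3 to 3 and 2 to 4 between naive classes. Without the library block Il7r between naive classes was at -0.160 (adjusted p = 0.406), and the labels give no replicate numbers that pair samples.

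With 168 to 228 Foxp3-positive cells per library, folds of genes at low level have wide counting intervals, and 1 library per group leaves variation between mice unmeasured.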
